A study of Mus musculus with 5 samples.

Results

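Hyaluronan is a long sugar polymer of the extracellular matrix that is spun out at the cell surface by 3 synthases. It is bound by receptors and by the large proteoglycan versican, is cross-linked during inflammation, and is cut by hyaluronidases. In injured liver, stellate cells that have turned into myofibroblasts are a known source of the polymer, and sinusoidal endothelial cells are known for clearing it from blood. The data described here are the levels of 9 genes of this system, which were listed by name: the synthases Has1, Has2 and Has3, the receptor Cd44, the hyaluronidases Hyal1 and Hyal2, versican (Vcan), the matrix cross-linker Tnfaip6 (TSG-6) and the motility receptor Hmmr (RHAMM). All 9 were among the 31053 genes counted.

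Liver non-parenchymal cells came from male Rosa26mTmG;Col1a1-Cre mice on a C57BL/6J background, in which Cre under the Col1a1 promoter turns on GFP in collagen-producing cells and their descendants. Mice received 10 mg/kg diethylnitrosamine (DEN), a liver carcinogen, or saline at 2 weeks of age, and from 6 weeks of age were fed a liquid Western diet with 3.5% (v/v) ethanol (WAD) or chow for 5 months. All groups shared the reporter and Cre alleles, so no group is free of them. After perfusion with pronase and collagenase, cells were sorted on GFP and on the autofluorescence of vitamin A, the retinoid that quiescent stellate cells store. Of the 5 single-cell libraries, 2 held the VitA+Col1a1+ gate (DEN+WAD and chow), 2 the VitA-Col1a1+ gate (likewise) and 1 a VitA-Col1a1- fraction of DEN+WAD liver. How many mice gave each library is not given in the sources used here.

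Each group was a single library. There were no replicates, and no p-value was computed. Intervals in brackets are 95% intervals for counting error alone, and they treat UMIs (counted RNA molecules) as independent, which UMIs of 1 cell are not. Libraries held 259 to 10481 cells and 6145748 to 149936344 UMIs, with medians of 9105.5 to 24077 UMIs per cell, and any pair of libraries shared 0 to 21 cell barcodes. The library labelled VitA-Col1a1- went against its label, since Col1a1 stood at 1062 UMIs per 1000000 in it, above the 304 and 958 of the VitA+Col1a1+ and VitA-Col1a1+ DEN+WAD libraries. It is called by its label below, and no direction is drawn from the Col1a1- in its name. Doublets were not removed. Levels are UMIs per 1000000 (CPM) of the summed cells, in which fewer cells of a type and less RNA per cell cannot be told apart. They come from 3′ ends, so they are compared between libraries and cells but not between genes, and splice forms of Cd44 and Vcan cannot be told apart.

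The members lie apart in the genome, except for the 2 hyaluronidases. In GRCm38, Hyal2 (chr9:107567945-107572779) and Hyal1 (chr9:107576927-107581710) are neighbours on the plus strand. Hyal1 overlaps Naa80 and Hyal3 on the same strand, so reads in the shared bases may belong to any of them. Cd44 (chr2:102811141-102901665, minus strand) and Tnfaip6 (chr2:52038009-52056686, plus strand) are far apart on 1 chromosome. Has1 lies at chr17:17843323-17855205, Has2 at chr15:56665627-56694539 and Vcan at chr13:89655312-89742509, all on the minus strand. Has3 lies at chr8:106870242-106884566 on the plus strand, and Hmmr at chr11:40701395-40733422 on the minus strand.

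Promoter windows of 300 bases, from 250 before to 50 after the annotated start, were available from RefSeq (GRCm38.p6) for 7 of the 9 genes. They were searched on both strands for the core promoter box TATAAA and for the box CCAAT, which is bound by the factor NF-Y. The other motifs were the AP-1 site TGANTCA, the site GGAATG of the TEAD factors, and TTTGAA, the core of the cell-cycle element known as CHR. The last was a narrow form of the NF-kB site, in which a run of T comes before the closing C bases. Wider forms of that site were not searched. Tnfaip6, Cd44 and Hmmr are shown because their levels carry the results below: the first 2 separated the gates, and Hmmr was found in cycling cells. Capitals mark the matches, and all windows read 5′ to 3′ on the strand of the gene.
Tnfaip6: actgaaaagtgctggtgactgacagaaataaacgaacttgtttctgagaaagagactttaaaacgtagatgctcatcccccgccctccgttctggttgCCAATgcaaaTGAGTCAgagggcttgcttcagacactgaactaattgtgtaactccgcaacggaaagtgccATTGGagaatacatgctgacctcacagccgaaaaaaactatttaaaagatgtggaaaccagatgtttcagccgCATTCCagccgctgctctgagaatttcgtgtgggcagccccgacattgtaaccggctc
Cd44: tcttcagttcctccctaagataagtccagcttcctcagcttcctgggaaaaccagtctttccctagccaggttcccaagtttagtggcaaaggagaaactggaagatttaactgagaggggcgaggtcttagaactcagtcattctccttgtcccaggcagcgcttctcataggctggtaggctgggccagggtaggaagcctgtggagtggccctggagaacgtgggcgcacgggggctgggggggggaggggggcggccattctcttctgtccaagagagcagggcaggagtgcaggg
Hmmr: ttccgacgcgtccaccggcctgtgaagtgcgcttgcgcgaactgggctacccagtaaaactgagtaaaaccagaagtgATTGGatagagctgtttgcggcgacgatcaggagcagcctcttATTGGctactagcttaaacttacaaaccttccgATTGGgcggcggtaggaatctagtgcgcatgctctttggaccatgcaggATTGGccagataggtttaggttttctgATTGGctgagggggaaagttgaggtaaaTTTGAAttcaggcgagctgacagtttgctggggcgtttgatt
These are chr2:52037863-52038162 (plus strand), chr2:102901616-102901915 (minus strand) and chr11:40733388-40733687 (minus strand). The Tnfaip6 window held TGAGTCA starting 142 bases before the start, CCAAT in both orientations, and GGAATG on the opposite strand. TGANTCA occurred in 7.81% of 32851 promoter windows, CCAAT in 37.4% and GGAATG in 14.7%. The Hmmr window held CCAAT 5 times, each on the opposite strand, and as many were found in 89 windows (0.271%). It also held TTTGAA just after the start, a motif found in 17.9% of windows. The Cd44 window held none of the 6 motifs. TATAAA and the narrow NF-kB form, present in 13.6% and 0.411% of windows, were in none of the 7. This does not show that the windows lack wider forms of the NF-kB site. A match is a run of letters and not evidence that a factor bound there.

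Cd44, the main cell-surface receptor for hyaluronan, stood at 7.65 CPM in VitA+ chow cells [5.62 to 10.2], 26.6 in VitA+ DEN+WAD cells [25.8 to 27.5], 56.2 in VitA- chow cells [52.5 to 60.1], 43.0 in VitA- DEN+WAD cells [41.2 to 44.9] and 151 in the library labelled VitA-Col1a1- [149 to 153]. Ordered by level, no neighbouring libraries had overlapping intervals. Tnfaip6, which moves heavy chains onto hyaluronan and is induced in inflammation, was at 11.6 CPM in VitA+ chow, 19.4 in VitA+ DEN+WAD, 114 in VitA- chow, 95.1 in VitA- DEN+WAD and 36.1 in the library labelled VitA-Col1a1-. Both VitA- Col1a1+ libraries were above the other 3, and again no neighbouring intervals overlapped. Vcan, which binds hyaluronan and swells the matrix, was at 3.09 CPM in VitA+ chow, 4.52 in VitA+ DEN+WAD, 14.8 in VitA- chow, 6.17 in VitA- DEN+WAD and 13.7 in the library labelled VitA-Col1a1-. The intervals of the 2 highest Vcan levels overlapped, as did those of the 2 lowest.

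**Figure D1:**
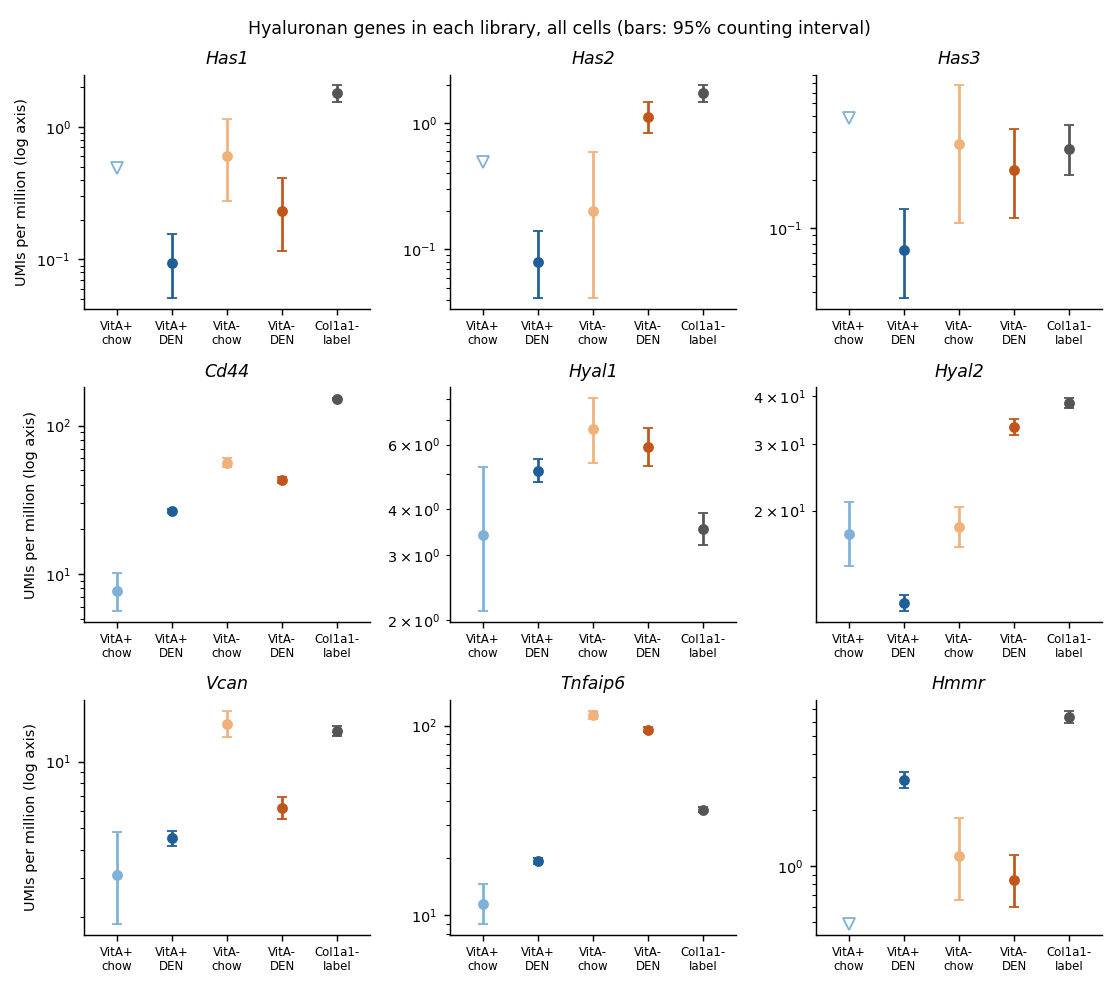
CPM of each gene (vertical log axis, its own range in each panel) in the 5 libraries (horizontal axis; Col1a1-label is the library labelled VitA-Col1a1-). Points are the summed counts of 1 library, bars are 95% counting intervals, and open triangles mark libraries at 0 UMIs, drawn at the level of 3 UMIs. Cd44 and Tnfaip6 are higher in both VitA- Col1a1+ libraries than in both VitA+ libraries.

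The synthases were barely detected. Has1 had 14 UMIs in VitA+ DEN+WAD, 11 in VitA- DEN+WAD, 9 in VitA- chow and 189 in the library labelled VitA-Col1a1-. Has2, the synthase best known from mesenchymal cells, had 12, 53, 3 and 181 UMIs in the same order, and Has3 had 11, 11, 5 and 33. None of the 3 had a UMI in the VitA+ chow library, where 3 UMIs would be 0.488 CPM, a level above that of each synthase in the larger VitA+ DEN+WAD library (0.0734 to 0.0934). A difference between the VitA+ libraries was therefore not detectable for any synthase.

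The UMIs of the synthases sat in few cells. The 53 Has2 UMIs of the VitA- DEN+WAD library came from 7 cells, of which 3 held at least 50%, and 1 cell held 15. In the library labelled VitA-Col1a1-, Has1 was found in 69 cells (0.699%) and Has2 in 84 (0.851%). After each cell was thinned to 2000 UMIs, the shares there were 0.261% [0.164 to 0.395] and 0.273% [0.173 to 0.409]. All Has3 counts were single UMIs in single cells, in each of the 4 libraries with any.

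Of the hyaluronidases, Hyal1, a lysosomal enzyme, stayed between 3.42 and 6.60 CPM over the 5 libraries. Hyal2, a membrane-anchored enzyme that cuts long chains, was at 17.4 CPM in VitA+ chow, 11.4 in VitA+ DEN+WAD, 18.1 in VitA- chow, 33.2 in VitA- DEN+WAD and 38.4 in the library labelled VitA-Col1a1-. Hmmr, a hyaluronan-binding protein that is better known from the mitotic spindle, had 0 UMIs in VitA+ chow, 436 in VitA+ DEN+WAD, 17 in VitA- chow, 40 in VitA- DEN+WAD and 671 in the library labelled VitA-Col1a1-.

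For DEN+WAD against chow in the VitA+Col1a1+ gate, the comparison asks what 5 months of the tumour-promoting regimen did to sorted stellate cells. Cd44 was 3.48-fold higher in the DEN+WAD library (log2 1.80 [1.39 to 2.25]). Tnfaip6 was 1.68-fold higher [1.33 to 2.16] and Hyal2 was lower (log2 -0.61 [-0.89 to -0.31]), both short of 2-fold. The Vcan and Hyal1 ratios, 1.46 [0.929 to 2.44] and 1.49 [0.969 to 2.42], had intervals that included 1. Of the 9 members, 5 passed the filter of a mean of 2 CPM and 1 was at least 2-fold higher. Over all genes that passed, 1.85% were at least 2-fold higher and 4.48% at least 2-fold lower. Higher genes were 29.3% of those calls, and 46.5% after TMM scaling, which moved all log2 ratios of this comparison up by 0.19. The median log2 ratio was 0.58 over the 5 members and -0.08 over all genes tested.

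Hmmr was under the filter. Its 436 UMIs in the DEN+WAD library against 0 gave a 5.96-fold ratio with 0 set to 3 UMIs, and an interval from 4.82-fold upward. Those UMIs came from 39 cells, 0.372% of the library, while the chow library had 259 cells in all. After thinning, 0 of 255 chow cells allows a share of up to 1.18% at 3 cells, or 1.44% by the exact interval, so a difference in the share of Hmmr cells was not detectable.

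In the VitA-Col1a1+ gate, which takes fibroblasts, smooth muscle and stellate cells without the vitamin A signal, the same regimen was compared in another mix of cells. Vcan in DEN+WAD was 0.417 times its chow level [0.349 to 0.499; log2 -1.26], and it was the only 1 of the 9 members past 2-fold among the 5 that passed the filter. Among all genes tested, 5.94% were at least 2-fold lower and 5.33% at least 2-fold higher. Hyal2 was 1.83-fold higher [1.61 to 2.09], Cd44 was lower (log2 -0.39 [-0.50 to -0.27]) and Tnfaip6 was lower (log2 -0.26 [-0.34 to -0.18]). The Hyal1 ratio was 0.897 [0.711 to 1.14]. Has2, under the filter, was 5.56-fold higher [1.80 to 27.8] on 53 against 3 UMIs. The median over the 5 members was -0.26, against -0.03 over all genes.

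The lower Vcan of this gate rested on 2 chow cells. One held 85 of the 222 Vcan UMIs of the chow library and another held 51, together over 50%. These cells had 102759 and 54949 UMIs in all, against a median of 22208.5. Neither had an Lrat or Pecam1 UMI, and the first had 165 UMIs of the portal fibroblast gene Fbln2 and the second 0. Without the 2 cells highest in Vcan in each library, an alternative chosen after seeing the data, the log2 ratio was -0.07, and as a mean over cells it was -0.46. In both cases no member was past 2-fold in this comparison. The share of cells with Vcan was 5.69% in chow and 5.90% in DEN+WAD, or 0.927% [0.341 to 2.01] and 0.648% [0.378 to 1.04] after thinning.

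**Figure D2:**
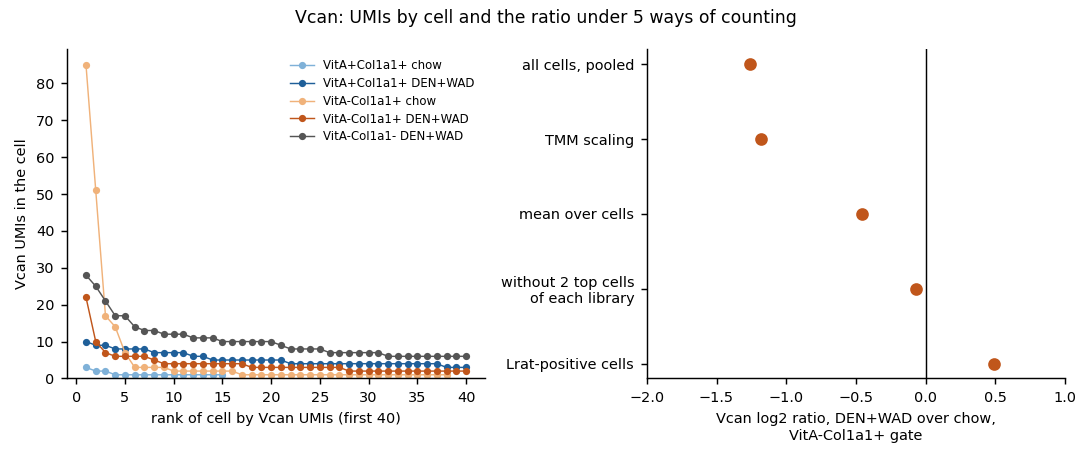
Left, Vcan UMIs in each of the 40 cells with the most, by rank, in the 5 libraries. Right, the Vcan log2 ratio of DEN+WAD over chow in the VitA-Col1a1+ gate, counted in 5 ways; it runs from -1.26 over all cells to 0.49 in Lrat-positive cells, and 2 chow cells with 85 and 51 UMIs stand apart on the left.

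The same ratios were counted in Lrat-positive cells alone, to compare cells of 1 class across treatments. Lrat makes the retinyl esters that stellate cells store. Cells with Lrat and no Pecam1, C1qa or Ptprc UMI were 10039, 233, 1767 and 466 in the VitA+ DEN+WAD, VitA+ chow, VitA- DEN+WAD and VitA- chow libraries. A single Lrat UMI was enough, so the class does not separate stellate cells cleanly from others. Cells in no class still held 9 stellate markers other than Lrat at high levels. Their medians were 68.9% of the Lrat-positive level in VitA- chow and 43.0% in VitA- DEN+WAD. In the VitA+ gate, Cd44 was 3.75-fold higher in DEN+WAD [2.75 to 5.26], close to its value in all cells, and was again the 1 member past 2-fold (2.18% of all genes were at least 2-fold higher). Tnfaip6 was 1.55-fold higher [1.22 to 1.98]. Hyal2, in contrast, stood at 9.28 and 9.11 CPM, a ratio of 1.02 [0.770 to 1.38].

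In Lrat-positive cells of the VitA- gate, Vcan turned from lower to higher. It was at 7.55 CPM in DEN+WAD and 5.38 in chow, which is 0.49 on the log2 scale [0.07 to 0.93]. Of the 59 chow UMIs, 17 came from 1 cell that had 1 Lrat UMI and 24 of the portal fibroblast gene Fbln2. With at least 2 Lrat UMIs required of a cell, which leaves that cell out, the Vcan log2 ratio was 0.96. Cd44 and Tnfaip6 kept values near those of all cells (log2 -0.34 [-0.48 to -0.21] and -0.31 [-0.40 to -0.21]). Hyal2 was 1.32-fold higher [1.03 to 1.71]. No member was past 2-fold with a mean of 2 CPM, where 3.57% of all genes were higher and 7.79% lower by as much. Has2 had 35 UMIs in 5 of these DEN+WAD cells and 1 UMI in chow.

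**Figure D3:**
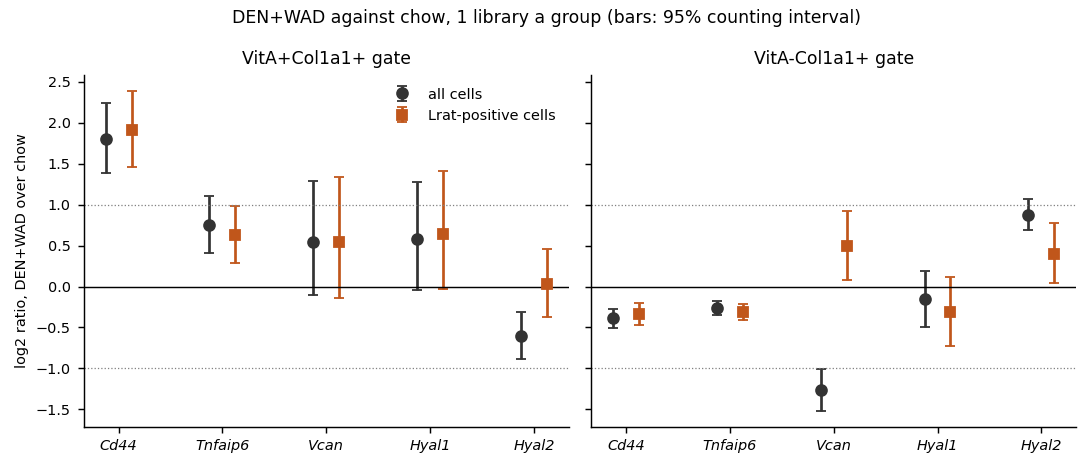
Log2 ratio of DEN+WAD over chow (vertical axis) for the 5 genes that passed the filter, in the VitA+Col1a1+ gate (left) and the VitA-Col1a1+ gate (right), over all cells (circles) and Lrat-positive cells (squares). Bars are 95% counting intervals of 1 library against 1, and dotted lines mark 2-fold. Cd44 lies at 1.80 and 1.91 in the VitA+ gate and below 0 in the VitA- gate, and Vcan of the VitA- gate lies on opposite sides of 0.

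Between the gates, Tnfaip6 and Cd44 were higher without the vitamin A signal. In chow liver, Tnfaip6 was 9.88-fold higher in VitA- than in VitA+ cells [7.79 to 12.7], Cd44 7.35-fold [5.48 to 10.1] and Vcan 4.79-fold [2.99 to 8.10]. That made 3 of the 5 members that passed, where 12.5% of all genes tested were at least 2-fold higher and 5.75% lower. The Vcan value again included the 2 cells above, and its log2 ratio of 2.26 was 1.34 without the 2 highest cells of each library and 0.89 as a mean over cells, under 2-fold. Hyal2 had a ratio of 1.04 [0.830 to 1.32]. In DEN+WAD liver, Tnfaip6 was 4.90-fold higher [4.68 to 5.14] and Hyal2 2.91-fold [2.72 to 3.12], 2 of 5 members, against 10.7% of all genes. Cd44 was 1.61-fold higher there [1.53 to 1.70] and Vcan 1.36-fold [1.19 to 1.57]. TMM scaling moved all log2 ratios between these DEN+WAD libraries by -0.20. Comparisons of the 2 treatments and of the 2 gates share libraries, so they are not independent of each other.

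Markers of other cells moved with the gate. The 10 portal fibroblast markers summed to 67.9 and 83.8 CPM in the VitA+ chow and DEN+WAD libraries and to 3917 and 1833 in the VitA- ones, and 5 smooth muscle markers to 459, 842, 4309 and 2222. Of these lists, 1 portal fibroblast and 2 smooth muscle genes were at 0 in VitA+ chow and none in the other 3 libraries. Within Lrat-positive cells, Tnfaip6 was 9.15-fold higher in VitA- than in VitA+ chow cells [7.20 to 11.8] and Cd44 8.33-fold [6.05 to 11.8]. These were 2 members, where 12.6% of all genes were at least 2-fold higher and 6.52% lower. A single Lrat UMI was enough for this class, and the part of other cells within it was not tested. Vcan was 1.77-fold higher there [1.02 to 3.24]. In DEN+WAD Lrat-positive cells, Tnfaip6 was 4.78-fold [4.54 to 5.03], Cd44 1.75-fold [1.65 to 1.86] and Vcan 1.70-fold higher [1.46 to 1.97], and the Hyal2 ratio was 1.02 [0.902 to 1.16]. There, 1 member was past 2-fold, while 6.56% of all genes were higher and 1.35% lower by as much.

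Hyal2 followed the endothelial cells. Cells with Pecam1, an endothelial adhesion gene, and none of the other class genes held Hyal2 at 166 CPM in VitA+ DEN+WAD [145 to 190], 170 in VitA- DEN+WAD [160 to 182], 227 in VitA- chow [191 to 268] and 137 in the library labelled VitA-Col1a1- [131 to 144]. Lrat-positive cells held it at 7.20 to 9.89 CPM in the 5 libraries. The Pecam1-positive level in the library labelled VitA-Col1a1- was 13.9-fold that of Lrat-positive cells [12.3 to 15.6]. The share of Pecam1-positive cells with Hyal2 there was 55.6%, and 23.6% after thinning [21.5 to 25.9], against 10.3% and 2.28% of Lrat-positive cells at median depths of 7772.5 and 11181 UMIs. With any cell that had a UMI of the class gene, the Hyal2 levels were 90.5 and 24.1 CPM. Other marker lists were higher with Hyal2 too. In VitA- chow, cells with Hyal2 held the endothelial list at 85.1-fold the level of other cells and the hepatocyte list at 54.5-fold. The cholangiocyte list was 37.8-fold higher in them, the cycling list 15.6-fold and the mesothelial list 7.50-fold.

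The endothelial content of the Col1a1+ libraries moved in the same direction as their Hyal2. The 8 endothelial markers, none at 0 in any library, summed to 505 CPM in VitA+ chow and 189 in VitA+ DEN+WAD, where Hyal2 was lower, and to 594 in VitA- chow and 1760 in VitA- DEN+WAD, where Hyal2 was higher. Pecam1-positive cells were 1.41% of VitA+ DEN+WAD, 5.54% of VitA- chow and 14.0% of VitA- DEN+WAD cells. Within them, Hyal2 was at 178 CPM in 358 cells with the sinusoidal gene Stab2 and 73.9 CPM in 24 cells without it in VitA- DEN+WAD. The same split of the library labelled VitA-Col1a1- gave 137 CPM on both sides.

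Cd44 was highest in the 2 classes of immune cells. Among classes of the library labelled VitA-Col1a1-, C1qa-positive cells, which hold a complement gene of macrophages, had 363 CPM [352 to 374], Ptprc-positive leukocytes 218 [196 to 242], Lrat-positive cells 98.2 and Pecam1-positive cells 4.12 [3.06 to 5.44]. That library was 40.4% unclassed cells, which had UMIs of several class genes or of none, and their Cd44 was at 173 CPM. All 7 macrophage markers were over 20 CPM in the C1qa-positive class, and all 8 endothelial markers in the Pecam1-positive class. The 4 hepatocyte markers were over 20 CPM in each of the 4 classes, and their part in the levels was not tested. Ptprc-positive cells held markers of monocytes, lymphocytes, neutrophils and dendritic cells together. Cd44 was found in 54.9% of C1qa-positive and 52.6% of Lrat-positive cells, at median depths of 6128 and 11181 UMIs. After thinning to equal depth the shares were 40.6% [37.0 to 44.4] and 15.9% [14.6 to 17.3]. The order of the immune classes depended on the class rule. With any cell that had a UMI of the class gene, whatever else it held, Cd44 was at 278 CPM in C1qa cells, 430 in Ptprc, 104 in Lrat and 157 in Pecam1 cells, and with at least 2 UMIs in place of 1 it was at 413, 243, 97.2 and 3.23. Among C1qa-positive cells, Cd44 stood at 471 CPM in 513 cells with the Kupffer cell gene Clec4f and at 228 CPM in 542 cells without it.

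**Figure D4:**
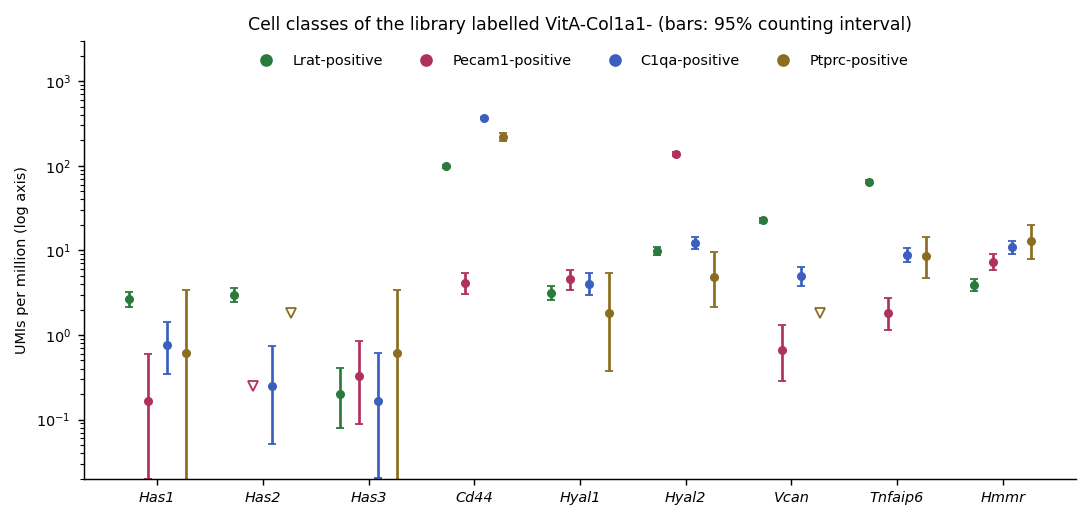
CPM (vertical log axis) of the 9 genes in the 4 cell classes of the library labelled VitA-Col1a1-. Bars are 95% counting intervals, and open triangles are classes at 0 UMIs, drawn at the level of 3 UMIs. With this class rule Hyal2 is highest in Pecam1-positive cells at 137 and Cd44 in C1qa-positive cells at 363, while Vcan and Tnfaip6 are highest in Lrat-positive cells.

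Vcan, Tnfaip6, Has1 and Has2 were highest in Lrat-positive cells of that library, 4 of the 9 members, beside 28.0% of the 15809 genes with at least 10 UMIs in the classes. Vcan was at 22.7 CPM [21.2 to 24.4] in Lrat-positive cells, 4.96 in C1qa-positive and 0.660 in Pecam1-positive cells, and had 0 UMIs in Ptprc-positive cells. Tnfaip6 was at 64.5 CPM in Lrat-positive cells, 8.82 in C1qa-positive, 8.59 in Ptprc-positive and 1.81 in Pecam1-positive cells. Has1 and Has2 were at 2.65 [2.14 to 3.25] and 2.99 [2.45 to 3.62] CPM in Lrat-positive cells, and Has2 had 3 UMIs in C1qa-positive cells and 0 in the Pecam1- and Ptprc-positive ones.

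Part of the signal in the other classes was at the level that stellate genes as such reached there. In C1qa-positive cells, 9 stellate markers other than Lrat stood at a median of 3.88% of their Lrat-positive level (3.18 to 7.64%), and Col1a1 at 13.5%. In Pecam1-positive cells the median was 2.29% and in Ptprc-positive cells 1.79%. Vcan and Tnfaip6 of C1qa-positive cells were at 0.218 [0.164 to 0.284] and 0.137 [0.111 to 0.166] of the Lrat-positive level. These values came mostly from cells with a single C1qa UMI: with at least 2 required, Vcan there was at 0.101 CPM and Tnfaip6 at 1.72. Tnfaip6 in Pecam1-positive cells, at 0.0281 of the Lrat-positive level [0.0176 to 0.0427], was within the 1.88 to 5.76% of the stellate markers there.

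Within Lrat-positive cells, Vcan, Tnfaip6 and Cd44 were higher where Col1a1, the main fibrillar collagen gene, was detected. In VitA+ DEN+WAD, 5305 Lrat-positive cells with a Col1a1 UMI held Vcan at 6.46 CPM and 4734 without one at 1.64, a log2 difference of 1.98 [1.67 to 2.30]. Tnfaip6 was at 26.5 and 10.1 CPM and Cd44 at 32.8 and 18.5 in the same cells. In VitA- DEN+WAD the log2 differences were 2.08 for Tnfaip6 [1.78 to 2.39], 1.71 for Cd44 [1.33 to 2.11] and 1.23 for Vcan [0.43 to 2.16]. In VitA+ chow, with 131 and 102 cells, all 3 intervals included 0. Cells with Col1a1 were deeper, with medians of 14133 against 12539.5 UMIs in VitA+ DEN+WAD and 12031 against 3169 in the library labelled VitA-Col1a1-, and the part of depth was not tested.

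**Figure D5:**
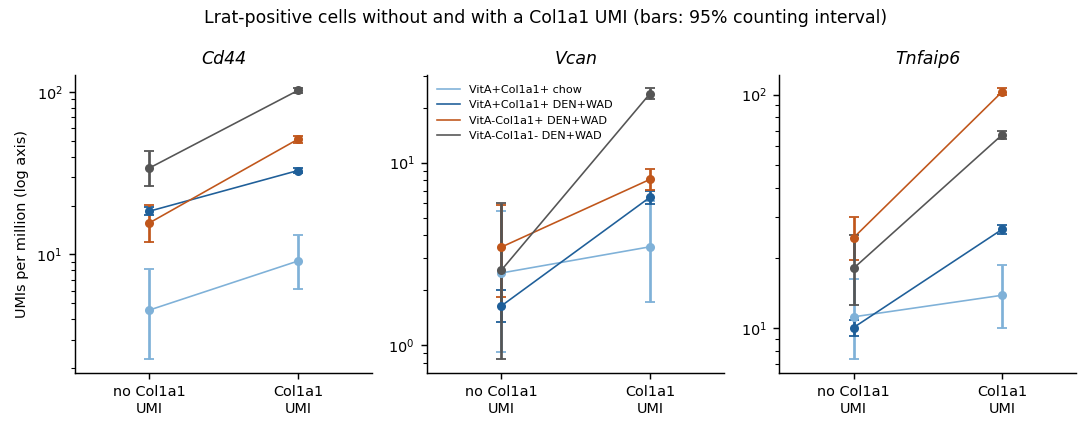
CPM (vertical log axis) of Cd44, Vcan and Tnfaip6 in Lrat-positive cells without and with a Col1a1 UMI. Lines join the 2 groups of cells within each of 4 libraries and bars are 95% counting intervals; VitA- chow is left out because under 20 of its Lrat-positive cells lacked Col1a1. The DEN+WAD lines rise for all 3 genes, and the VitA+ chow intervals overlap.

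Cells that held a member differed from the rest of their library in other genes too. The following are descriptions over cells of 1 library, chosen by at least 1 UMI of the member. Cells with Cd44, Vcan, Tnfaip6, Has1, Has2 or Hmmr had higher median UMIs than the rest of their library. Cells with Has3 or Hyal2 did not in VitA- DEN+WAD (medians of 13972 against 16697.5 and 16557.5 against 16714). In VitA+ DEN+WAD, the 2569 cells with Cd44 (median 14718 UMIs, against 12857.5 without) had the smooth muscle actin gene Acta2 at 267 against 42.7 CPM. The protease inhibitor gene Timp1 was at 182 against 36.5 CPM, Vcan at 9.12 against 2.63 and Lrat at 1369 against 1550. In VitA- chow, by contrast, Acta2 was lower in cells with Cd44, at 1224 against 1420 CPM. Cells with Cd44 in the library labelled VitA-Col1a1- had the macrophage genes C1qa at 1609 against 93.0 CPM and Csf1r at 290 against 12.6.

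Cells with Vcan were collagen-rich. In VitA+ DEN+WAD, 407 cells with Vcan had Col1a1 at 1753 against 215 CPM, Timp1 at 599 against 47.1, the collagen cross-linker Lox at 52.2 against 4.30 and Fbln2 at 15.3 against 1.25. The 628 cells with Vcan in the library labelled VitA-Col1a1- had Col1a1 at 3483 against 790 CPM, Timp1 at 375 against 49.3 and Tnfaip6 at 92.9 against 29.7. Lrat was at 543 CPM in them and 437 in the rest.

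Cells with Tnfaip6 held portal fibroblast genes at higher levels in 4 of the 5 libraries. The 10 markers summed to 3.39-fold the level of other cells in VitA- DEN+WAD [3.34 to 3.45], 3.32-fold in VitA+ DEN+WAD [3.21 to 3.44], 2.99-fold in the VitA-Col1a1- library [2.94 to 3.03] and 1.71-fold in VitA- chow [1.68 to 1.74]. In the 34 such cells of VitA+ chow the ratio was 1.08 [0.805 to 1.42], and the ligand gene Gas6 was lower at 0.468 [0.219 to 0.886]. In VitA- DEN+WAD, 1051 cells with Tnfaip6 had the matrix genes Fbln1 at 383 against 84.4 CPM and Mfap4 at 525 against 118, and Gas6 at 1418 against 449. The prostaglandin synthase Ptgs2 was at 78.8 against 11.6 CPM and the cytokine Il6 at 10.9 against 0.812. Lrat went the other way, at 461 against 736 CPM. In VitA+ DEN+WAD, 1515 cells with Tnfaip6 had Mfap4 at 32.6 against 1.88 CPM and Fbln1 at 13.8 against 1.55. The inflammatory list, which holds Ptgs2 and Il6, differed between the chow libraries. Its sum in cells with Tnfaip6 was 0.874 times that of other cells in VitA- chow [0.850 to 0.899] and 1.87 times in VitA+ chow [1.75 to 2.00].

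In the library labelled VitA-Col1a1-, Il6 was higher in the few cells with Has1 or Has2. Single genes of the marker lists are given here, and the other genes of those lists are not. In the library labelled VitA-Col1a1-, 84 cells with Has2 (median 18379.5 UMIs, against 9053) had Il6 at 103 against 5.80 CPM, a 17.8-fold ratio [14.8 to 21.2], and the chemokine Ccl2 at 1967 against 303. Vcan was at 88.2 against 12.6 CPM, Tnfaip6 at 161 against 34.3 and the fibroblast gene Thy1 at 90.2 against 16.2, while Lrat was about the same at 446 and 448. The 69 cells with Has1 had Il6 at 59.4 against 6.65 CPM, Ptgs2 at 113 against 15.1, the mesothelial gene Wt1 at 67.3 against 8.54 and the adventitial fibroblast gene Pi16 at 71.6 against 9.01. Ccl2 was only 1.19-fold higher with Has1 [1.08 to 1.31]. In VitA- DEN+WAD, all 7 cells with Has2 also had Cd44 and Tnfaip6, and 5 had Vcan.

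Hmmr marked cycling cells. In VitA+ DEN+WAD, the 39 cells with Hmmr had Top2a, an enzyme of replicating cells, at 1084 CPM against 0.746 in the other 10442 cells. The mitotic genes Ccnb1 and Cenpf were at 157 against 0.0739 and 818 against 0.679. Of the 39 cells, 36 were Lrat-positive, and Lrat in the 39 was lower, at 494 against 1505 CPM, while Acta2 was higher at 680 against 104. In VitA- chow, all 17 Hmmr UMIs came from 1 cell, which had 13 Pecam1 and no Lrat UMIs. In VitA- DEN+WAD none of 1767 Lrat-positive cells had Hmmr. After thinning, the share was 0 of 1755 cells [0 to 0.210%], which overlaps the 0.130% of VitA+ DEN+WAD [0.0694 to 0.223].

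Hmmr was spread over the classes of the VitA-Col1a1- library, with 3.90 CPM in Lrat-positive, 7.34 in Pecam1-positive, 10.8 in C1qa-positive and 12.9 in Ptprc-positive cells. The last 2 intervals overlapped (9.05 to 12.9 and 7.97 to 19.7). Its 164 cells had Top2a at 757 against 7.58 CPM.

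The wider pathway was read from a list of 44 genes, of which 43 were counted. In the VitA+ gate, 30 passed the filter, of which 1 was higher by 2-fold in DEN+WAD and 3 were lower, beside 1.85% and 4.48% of all genes. Adamts4, a protease that cuts versican, was 3.26-fold higher (16.4 against 5.04 CPM). The scavenger receptors Stab1 and Stab2, which take up hyaluronan in sinusoidal endothelium, were lower (log2 -1.96 and -2.10), as was the Cd44 ligand Spp1 (log2 -2.29). In Lrat-positive cells 2 of 26 that passed were higher and 0 lower, beside 2.18% and 3.09% of all genes. Adamts4 was 3.09-fold higher there, Stab1 and Stab2 were under the filter, and Spp1 turned over to 5.63-fold higher (8.04 against 1.43 CPM). Spp1 passed the filter there through its DEN+WAD level alone.

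In the VitA- gate, 32 of the 43 passed, 9 were higher in DEN+WAD and 3 lower, beside 5.33% and 5.94% of all genes. Higher were Lyve1, the endothelial hyaluronan receptor, at 166 against 29.9 CPM, and Stab1 and Stab2 (2.60- and 2.92-fold). So were the innate receptor Tlr2 (2.05-fold) and the cell-surface hyaluronidase Tmem2 (2.95-fold). The rest were the heavy chains Itih2, Itih3 and Itih4 (2.63-, 5.01- and 2.54-fold) and Ambp (4.17-fold), whose product carries some chains of this family. The lower genes were the heavy chain Itih5 (log2 -1.28), the link protein Hapln3 (log2 -1.11) and the protease Adamts15 (log2 -1.08). Endothelial markers moved with the receptors, as given above, and 4 hepatocyte markers moved with Itih2 and Ambp, summing to 29.4 CPM in chow and 403 in DEN+WAD with none at 0. In Lrat-positive cells 29 of the 43 passed, 5 were higher and 3 lower, beside 3.57% and 7.79% of all genes. Itih3 (31.2 against 6.11 CPM), Itih4, Tlr2, Stab1 and Spp1 (13.9 against 1.09 CPM) were higher there, and Itih5, Hapln3 and Adamts15 were again lower. Spp1 again passed the filter through its DEN+WAD level alone.

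None of the 7 genes for hyaluronan precursors was past 2-fold between treatments in either gate. Between gates, 7 of 31 that passed were higher and 2 lower in VitA- chow cells, beside 12.5% and 5.75% of all genes, and 10 of 32 were higher and 0 lower in VitA- DEN+WAD cells, beside 10.7% and 1.71%. Gfpt2, which starts hexosamine synthesis, was 7.93-fold higher in VitA- than in VitA+ chow cells and 3.14-fold higher in DEN+WAD. Ugdh, which makes the glucuronate precursor, was 2.49-fold higher in VitA- chow cells and Pgm3, of the hexosamine route, 2.10-fold. The 2 lower genes in VitA- chow cells were Itih3 (5.20 against 28.3 CPM) and Itih4 (6.60 against 17.3). Itih5 was at 69.4 CPM in VitA- chow and 1.14 in VitA+ chow, and at 28.7 and 1.05 in DEN+WAD. The versican protease Adamts5 was 3.79- and 2.25-fold higher in the VitA- libraries. In Lrat-positive cells, 7 of 26 pathway genes that passed were higher and 2 lower in VitA- chow, beside 12.6% and 6.52% of all genes. In VitA- DEN+WAD, 4 of 29 were higher and 0 lower there, beside 6.56% and 1.35%. Endothelial markers differed between the gates, as given above, and their part in the counts over all cells was not tested.

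Genes with the most similar pattern were ranked by Pearson correlation of log2(CPM + 1) over 10 units of library and class with at least 50 cells, among 9096 genes. These units share libraries and depth, so the values are descriptions. Hyal2 was most like the endothelial genes Exoc3l2 (0.996), Ccm2l (0.993) and Ackr2 (0.992). Hmmr was most like the mitotic genes Ube2c (0.986), Prc1 (0.976) and Cdca3 (0.965). Tnfaip6 was most like Crispld2 (0.987), Fhl2 (0.982) and Abca8a (0.977), Vcan like Hacd1 (0.983), Cnpy2 (0.974) and Prdx2 (0.970), and Cd44 like Ufsp2 (0.981), Ddt (0.974) and Ssr4 (0.974). The values were lower for Hyal1, with Sgta (0.920), Dhdds (0.913) and Wdsub1 (0.872), for Has1, with Tmem147 (0.856), Nudcd2 (0.825) and Snx18 (0.824), and for Has2, with Ostc (0.859), Cdh3 (0.858) and Prdx4 (0.857). Has3 had too few UMIs to be ranked.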

How the data were processed

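Cells were loaded on the 10x Genomics 3′ platform, and 2 kit versions are named for the same libraries. The authors aligned reads to mm10 and counted UMIs with Cell Ranger, version 3.1.0 in the labels. The file headers give 3.1.0 for 4 libraries and 6.1.2 for the VitA-Col1a1- one. The deposited values are raw UMI counts per gene and barcode, and all deposited barcodes, each with at least 500 UMIs, were kept as cells. Mitochondrial genes took 2.75 to 4.27% of UMIs.

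UMIs were summed per library or class and scaled to 1000000 (CPM). Levels carry exact Poisson intervals, ratios conditional binomial ones and shares exact Clopper-Pearson ones, all at 95%. Levels of 0 were set to 3 UMIs for folds, and shares of 0 to 3 cells for limits. A gene was counted as higher or lower at 2-fold and a mean of 2 CPM over the libraries compared. Cells were thinned at random (seed 7) to 2000 UMIs for shares, leaving out shallower cells. Of the DEN+WAD cells, 172 (VitA+Col1a1+), 106 (VitA-Col1a1+) and 1439 (labelled VitA-Col1a1-) were left out, and of the chow cells 4 (VitA+) and 21 (VitA-). Classes were set by UMIs of Lrat, Pecam1, C1qa and Ptprc, with cells of the other class genes left out, and classes under 20 cells gave no value. Python 3.11.15, numpy 2.4.6, scipy 1.17.1, pandas 2.3.3 and matplotlib 3.10.9 were used, with TMM factors from edgeR 4.0.16 in R 4.3.3. The ratio script was tested on simulated data. The members, gene lists and tests were chosen with earlier results of these data known. All members were named. The pathway list held Tmem2 also under its newer symbol Cemip2, and Has2os was not counted. Pathway genes past 2-fold were to be named up to 8 per gate by size, and the 9th to 12th of the VitA- gate were added after their values were seen. Splits by Col1a1, Clec4f and Stab2 and the leaving out of the highest cells were added after seeing the data. Promoter windows and positions come from RefSeq and GENCODE M21 for GRCm38.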

Additional observations from a re-analysis of the deposited data

Results flagged for a closer look

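Some ratios had intervals on opposite sides of 0 in different gates or treatments. These differences were not tested, since each group is 1 library. Cd44 had a log2 ratio of DEN+WAD over chow of 1.80 in the VitA+Col1a1+ gate and -0.39 in the VitA-Col1a1+ gate over all cells, and of 1.91 and -0.34 in Lrat-positive cells. Tnfaip6 had 0.75 and -0.26 over all cells and 0.63 and -0.31 in Lrat-positive cells. Hyal2 had -0.61 and 0.87 over all cells, where endothelial markers moved the same way, and 0.03 and 0.40 in Lrat-positive cells. Hmmr had a log2 ratio of VitA- over VitA+ of 1.22 in chow, a lower bound that rests on 17 UMIs of 1 cell, and of -1.79 in DEN+WAD.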

How the results depend on the processing

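No paired analysis was possible because each group is 1 library. The number of members past 2-fold in the VitA+Col1a1+ gate, 1, was 3 at a 1.5-fold threshold (Cd44, Hyal2, Tnfaip6) and 2 with no filter on low values (Cd44, Hmmr). In the VitA-Col1a1+ gate it went from 1 to 0 in Lrat-positive cells only, by the mean over cells and without the 2 cells holding the most UMIs of the gene, to 2 at 1.5-fold (Hyal2, Vcan) and to 3 with no filter (Has1, Has2, Vcan). Between gates in DEN+WAD liver it went from 2 to 1 in Lrat-positive cells only and to 6 with no filter. Pathway genes past 2-fold in the VitA+ gate fell from 4 to 2 in Lrat-positive cells only, where fewer genes passed the filter. Ratios turned over in Lrat-positive cells for Vcan in the VitA- gate (0.49) and Hyal2 in the VitA+ gate (0.0265 on the log2 scale). The causes of these changes were not tested. The other 38 counts compared stayed within 1.5 times, among them all 6 under TMM scaling, all 4 with barcodes of at least 2000 UMIs and all 4 with at most 10% mitochondrial UMIs. Class levels moved beyond their interval in 35 cases and stayed in 64 when any cell with a UMI of the class gene was taken, and moved in 17 and stayed in 82 when 2 UMIs were required. Depth limits the 259 cells of the VitA+ chow library most, where 3 UMIs are 0.488 CPM.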
